A study of Mus musculus with 64 samples.

Results

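The solute carrier genes described here are all genes whose symbol has the form Slc, a family number, the letter a and a member number, except Slc26a4, Slc2a1 and Slc2a3, that had a probe set at or above the median of its array on at least 2 of the 64 arrays of the series. Of 235 such symbols on the array, 159 met this rule and 76 did not, and the 159 were tested among 9352 genes that met the same rule. Detection on any 2 arrays is the measured value that chose them. A gene detected in few groups had to be higher in those groups, and 30 of the 159 passed on 2 to 15 arrays, against 55 that passed on all 64. Just inside the rule, with exactly 2 arrays, were 9 genes, among them Slc2a4, with a deposited signal of 83.77 and 98.76 on its 2 arrays, whose medians were 75.3 and 80.61. The 12 just outside it, with 1 array, include Slc1a3, which reached 90.38 on an array with a median of 85.59. All values below are thus values of detected genes, and the 76 undetected symbols have no level here.

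Solute carriers are membrane proteins that move nutrients, ions, metals, nucleotides, lipids and drugs across the cell surface or the membranes of organelles, by facilitated diffusion or coupled to the gradient of another solute. Families are numbered by sequence, so members of a family often share a class of substrate but differ in tissue and membrane. In the inner ear they are known for filling the endolymph with potassium, for loading glutamate into the synaptic vesicles of hair cells and for supplying an epithelium that lies apart from blood. Most of what is known concerns the mature ear, while the arrays here cover the days in which the otic placode becomes the cochlea and the vestibular organs.

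The samples are microdissected tissues of CBA/J mouse embryos that carry no named mutation or treatment. They comprise the otic placode at E9, the otic vesicle at E9.5 and E10, the cochlea at 10 half-day stages from E10.5 to E15, the vestibular organ at 4 stages (E10.5 to E12), and, at 6 stages each from E12.5, the utricle with its ampullae and the saccule. Non-inner ear tissue lying next to the ear was the comparison tissue, taken at E9, pooled over E9.5 to E10.5 and pooled over E11 to E15. There are 2 arrays for each of the 32 groups, from pools of different litters, 58 inner ear arrays and 6 of surrounding tissue in all, and the pools hold 6 to 17 tissues. A pool of dissected epithelium is a bulk sample, so fewer cells of a type and less RNA per cell cannot be told apart. The cochlear and the vestibular organ series both span a change in the enzyme step that freed the epithelium. It was 8 to 10 minutes of dispase up to E10.5 and 20 to 25 minutes from E11.

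Signals below are quantile-normalized array intensities with a floor of 10, and each gene is read from 1 probe set, so a level is compared between samples and never between genes. Changes are log2 differences of signal plus 16 with a standard error (SE) from 1 limma model of all arrays. A gene is called higher or lower, or said to have risen or fallen, only with a Benjamini-Hochberg adjusted p under 0.05 over all 9352 genes and a change of at least 1. Trends are changes along a line fitted to the stage means, later against earlier. Of 7 measured otic epithelium markers, 5 at E9 and 7 in each later window were higher in the inner ear than around it, and their summed signal was at least 1845 on the placode arrays and at most 593.5 on those of surrounding tissue. Replicate arrays correlated at 0.9502 to 0.9896 over the solute carriers. The 4 arrays of E11 had more probe sets at the floor (9.81 to 12.04 percent) than any other array (up to 8.63 percent).

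Across the 14 comparisons, 51 of the 159 genes (32.1 percent) were called at least once and 108 never, where 37.3 percent of all genes were called at least once. Their levels varied over the 29 inner ear groups about as much as those of other genes, with a median range of 1.28 log2 against 1.35 over all genes tested. A few varied far more: 11 solute carriers spanned over 3 log2, led by Slc15a2 (6.40), Slc6a15 (6.00), Slc44a3 (5.84), Slc27a2 (4.64) and Slc39a8 (4.15). At the other end, 37 spanned less than 1 log2, and the mitochondrial phosphate carrier Slc25a3, with 0.47, spanned the least.

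The promoters of 4 of these genes are printed because the results turn on them: Slc44a3 and Slc15a2 rose the most in each late tissue, and Slc39a8 and Slc7a10 were higher in the cochlea than in each vestibular tissue. The sequences are from RefSeq on GRCm38.p6, 5′ to 3′ on the strand of the gene, from 250 bases before to 50 after the transcript start, and 124 of the 159 genes have such an entry. Capitals mark matches on either strand of 5 motifs, and no 2 matches overlap in these windows. The TATA box was searched as TATAAA. The CCAAT box was searched by that name. The GC box was searched as GGGCGG. The E-box was searched as CANNTG. The GATA motif was searched as AGATAA. The promoters lie at chr3:121532295-121532594 (minus strand, Slc44a3), chr16:36784913-36785212 (minus strand, Slc15a2), chr3:135825029-135825328 (plus strand, the first of 2 listed starts of Slc39a8) and chr7:35186135-35186434 (plus strand, Slc7a10).
Slc44a3: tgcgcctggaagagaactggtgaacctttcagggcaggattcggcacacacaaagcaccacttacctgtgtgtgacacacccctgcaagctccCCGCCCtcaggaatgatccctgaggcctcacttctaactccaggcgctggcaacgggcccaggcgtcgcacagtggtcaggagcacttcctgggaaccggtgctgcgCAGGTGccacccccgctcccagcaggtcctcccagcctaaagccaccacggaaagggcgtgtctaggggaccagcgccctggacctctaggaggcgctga
Slc15a2: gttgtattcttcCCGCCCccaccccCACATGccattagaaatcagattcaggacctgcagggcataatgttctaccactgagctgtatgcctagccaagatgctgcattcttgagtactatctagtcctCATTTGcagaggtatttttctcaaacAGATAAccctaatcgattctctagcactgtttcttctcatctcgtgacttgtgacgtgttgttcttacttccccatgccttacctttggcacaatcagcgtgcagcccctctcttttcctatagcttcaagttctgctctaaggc
Slc39a8: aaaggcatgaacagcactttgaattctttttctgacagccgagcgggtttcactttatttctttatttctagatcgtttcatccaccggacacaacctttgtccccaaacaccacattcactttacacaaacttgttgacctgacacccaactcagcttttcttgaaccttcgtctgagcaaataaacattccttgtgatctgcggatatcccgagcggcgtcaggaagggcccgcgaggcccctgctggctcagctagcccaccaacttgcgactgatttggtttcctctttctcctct
Slc7a10: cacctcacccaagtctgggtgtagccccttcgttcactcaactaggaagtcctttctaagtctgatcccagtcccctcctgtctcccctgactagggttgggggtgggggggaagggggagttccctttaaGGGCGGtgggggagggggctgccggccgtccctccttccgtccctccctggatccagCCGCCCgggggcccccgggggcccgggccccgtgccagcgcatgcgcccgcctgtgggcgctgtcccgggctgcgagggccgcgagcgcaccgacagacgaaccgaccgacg

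The Slc44a3 window holds 1 GC box and 1 E-box, that of Slc15a2 1 GC box, 2 E-boxes and 1 GATA motif, that of Slc7a10 2 GC boxes, and that of Slc39a8 none of the 5. Over all 32851 promoters of this length in the reference table, 35.7 percent hold a GC box, 72.3 percent an E-box, 37.4 percent a CCAAT box, 13.6 percent a TATA box and 11.2 percent the GATA motif. Among the 172 listed promoters of the solute carriers the shares were 62.8 percent for the GC box and 73.3 percent for the E-box. They were 34.3 percent for the CCAAT box, 7.6 percent for the TATA box and 8.1 percent for the GATA motif. The reference promoters were counted whether or not their genes were detected here, so the 2 sets are not matched. The 2 genes that rose together thus share a GC box and an E-box, both of which are common, and these matches are letters in a window, not measured sites.

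Of the 4 measured genes of the Slc44 family, Slc44a3, Slc44a2 and Slc44a4 rose in the cochlea over E10.5 to E15. The Slc44 proteins are choline transporter-like membrane proteins, and choline feeds the synthesis of phosphatidylcholine and acetylcholine. Slc44a3, whose own substrate is little studied, had signals of 97.8 and 31.3 in the cochlea at E10.5, 168 and 191 at E12, 599.6 and 594 at E13.5 and 4345 and 3416 at E15. Each later pair lay above the one before it, and the trend over E10.5 to E15 was 5.65 (SE 0.21, limma adjusted p = 4.95e-24). In the utricle with ampullae it had 237 and 311 at E12.5 and 3372 and 2968 at E15, and in the saccule 212 and 187 at E12.5 and 1942 and 2874 at E15. Over those stages it rose by 3.28 (SE 0.25) in the utricle and by 3.48 (SE 0.25) in the saccule, and by 3.69 (SE 0.25) in the cochlea over the same days. The gene had already risen between the placode and the vesicle, with 197 and 194 at E10 and 53 and 49.7 at E9, a change of 1.65 (SE 0.29, limma adjusted p = 8.34e-05).

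Slc44a2, which encodes a choline transporter-like protein of inner ear supporting cells that is a target in autoimmune hearing loss, rose in the cochlea from 285 and 244 at E10.5 through 507 and 474 at E12.5 to 1467 and 1519 at E15. The trend was 2.10 (SE 0.11, limma adjusted p = 3.11e-19). The utricle with ampullae had 534 and 461 at E12.5 and 628 and 634 at E15, a change of 0.11 (SE 0.13) that was not called. The difference between the cochlear and the utricular change over E12.5 to E15 was 1.47 (SE 0.18, limma adjusted p = 3.59e-07). On its second probe set this difference was 0.83 with an adjusted p of 0.1557, so that call rests on 1 of the probe sets. Slc44a4, reported as a carrier of thiamine pyrophosphate, rose in all 3 late tissues, by 2.21 (SE 0.15) in the cochlea over E10.5 to E15, by 1.30 (SE 0.18) in the utricle and by 1.07 (SE 0.18) in the saccule over E12.5 to E15. Slc44a1, a plasma membrane and mitochondrial choline carrier, had no called trend. Its 2 arrays at E14 in the utricle with ampullae, at 33.2 and 251, were the lowest pair of the inner ear groups.

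Slc15a2 encodes PEPT2, a proton-coupled carrier that takes up dipeptides and tripeptides. Its signal was 289 and 275 in the placode at E9, 49.9 and 34.3 in the cochlea at E10.5 and 1514 and 1261 there at E11.5. It stood at 731 and 584 at E12.5 and at 4744 and 4167 at E15. The vestibular organ also had its highest values at E11.5, with 75.8 and 59.8 at E10.5, 928 and 1039 at E11.5 and 435 and 571 at E12. The cochlear trend over E10.5 to E15 was 5.05 (SE 0.16, limma adjusted p = 5.62e-26). Within E11 to E15, the stages of 1 dispase time, it was 3.42 (SE 0.17). The trend of the vestibular organ over E10.5 to E12 was 2.87 (SE 0.22, limma adjusted p = 1.14e-12). From E12.5 to E15 the gene rose by 3.69 (SE 0.19) in the utricle, by 3.79 (SE 0.19) in the saccule and by 2.94 (SE 0.19) in the cochlea. A dimmer second probe set gave 2.70 for the cochlear trend and 1.84 for the utricular one, but 0.70 with an adjusted p of 0.0795 in the vestibular organ.

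**Figure D1:**
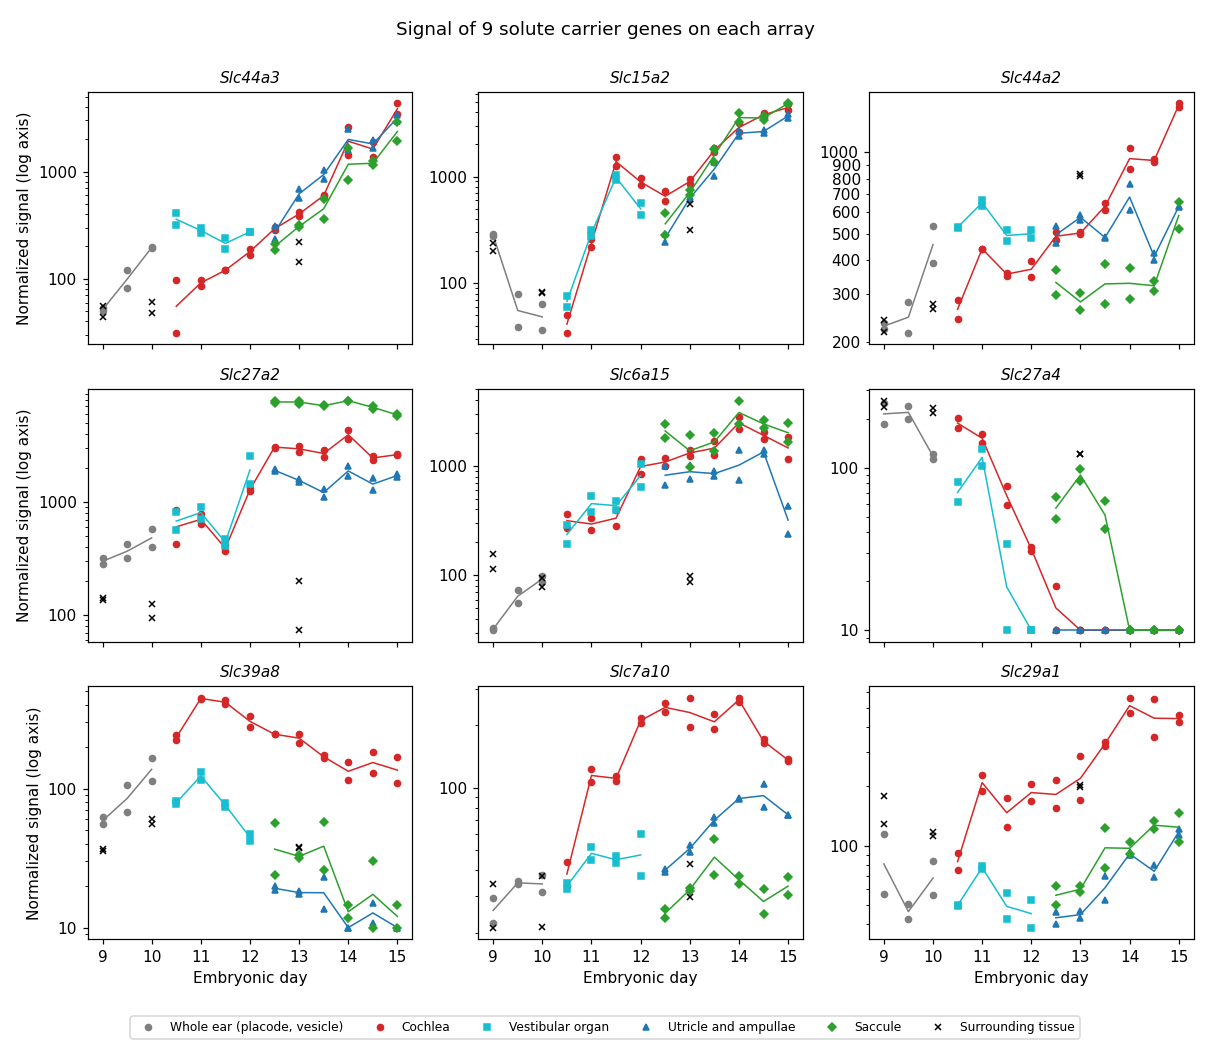
Normalized signal (log axis) of 9 solute carrier genes against embryonic day, 1 point per array, with lines through the mean of the 2 arrays of each inner ear group; the pooled surrounding tissue is drawn at the middle day of its window. Slc44a3 and Slc15a2 climb in each late tissue, Slc27a4 reaches the floor of 10, and Slc39a8, Slc7a10 and Slc29a1 are higher in the cochlea than in the vestibular tissues.

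Over E10.5 to E15 the cochlea had 29 of the 159 solute carriers called, 21 risen and 8 fallen (23 and 4 on the values as deposited), where 8.06 percent of all genes rose and 6.89 percent fell. Of the solute carriers these are 13.2 and 5.03 percent. The median change was 0.11 over the solute carriers and 0.06 over all genes. Within E11 to E15, the stages of 1 dispase time, 24 were called, 17 risen and 7 fallen (7.67 and 6.85 percent of all genes). From E12.5 to E15 alone, a window added after the values were seen, 9 were called, 9 risen and 0 fallen (3.42 and 2.88 percent of all genes), and 26 had a negative trend at an unadjusted limma p under 0.05. Of the genes called from E10.5, Slc25a28 (0.96), Slc38a10 (0.84), Slc22a23 (0.87), Slc7a10 (0.38), Slc25a5 (-0.79) and Slc7a3 (-0.93) were not called within E11 to E15. The 9 called from E12.5 are Slc44a3, Slc15a2, Slc24a3, Slc44a2, Slc12a2, Slc29a1, Slc30a2, Slc1a4 and Slc44a4. Markers of other cells moved over the cochlear series too. The summed signal of 5 red blood cell markers was 4123 and 6946 at E10.5 and 201.2 and 237.4 at E15, and 6 of 7 neuronal markers fell and 6 of 7 otic epithelium markers rose. That of 7 mesenchyme markers was 721.7 and 1618 at E10.5 and 5423 and 6241 at E15, with Lum risen and Twist1 and Snai2 fallen. That of 4 melanocyte markers was 563.3 and 658.9 at E10.5 and 1182 and 2292 at E15, with Pmel risen. The endothelial Cdh5 and the hindbrain markers Zic1 and Zic5 fell. Their part in the solute carrier changes was not tested.

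Fatty acid carriers moved in opposite directions. Slc27a2 encodes a very long-chain acyl-CoA synthetase that also promotes fatty acid uptake. In the cochlea it had 368 and 415 at E11.5, 1328 and 1244 at E12 and 3025 and 3082 at E12.5, and then stayed between 2334 and 4313 through E15. The trend over E10.5 to E15 was 2.77 (SE 0.18, limma adjusted p = 6.19e-16), and that over E12.5 to E15 was -0.19 (SE 0.22), not called. Slc27a4, which encodes the fatty acid transport protein FATP4, had 174 and 202 at E10.5, 58.7 and 77.1 at E11.5 and 18.8 and 10 at E12.5, and was listed at the floor of 10 on all 10 cochlear arrays from E13. The vestibular organ had 81.1 and 61 at E10.5 and both arrays at the floor at E12. The saccule still had 98.4 and 82.3 at E13 and was at the floor from E14, while all 12 arrays of the utricle were at the floor. The fitted falls, -3.10 (SE 0.13) in the cochlea, -2.12 (SE 0.18) in the vestibular organ and -2.12 (SE 0.16) in the saccule, are limited by that floor. The other measured members of the family, Slc27a1, Slc27a3 and Slc27a5, were called in no comparison.

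Of 13 amino acid carriers, 3 rose (Slc1a4, Slc7a10 and Slc38a10) and 3 fell (Slc7a3, Slc38a4 and Slc43a3) in the cochlea over E10.5 to E15, and of 8 amino acid and neurotransmitter carriers of family 6, 2 were called and both rose (Slc6a15 and Slc6a18). Slc6a15, a sodium-coupled carrier of branched-chain amino acids and proline known from neurons, had 367 and 272 at E10.5, 839 and 1164 at E12 and 2800 and 2187 at E14. The trend was 2.94 (SE 0.22, limma adjusted p = 4.15e-14), and 0.64 (SE 0.27), not called, over E12.5 to E15. Slc1a4, the alanine, serine and cysteine exchanger ASCT1, had 244 and 228 at E12.5 and 470.5 and 605 at E15 in the cochlea, 59.1 and 58.3 and 204 and 197 at those stages in the saccule, and 367 and 315 and 112 and 167 in the utricle with ampullae. It rose in the cochlea by 1.14 (SE 0.24) and in the saccule by 1.98 (SE 0.24) and fell in the utricle, a change of -1.05 (SE 0.24). The cochlear minus the utricular change was 2.19 (SE 0.34, limma adjusted p = 2.49e-05). Slc38a4, the sodium-coupled neutral amino acid carrier SNAT4, fell in all 3 tissues. Its changes were -1.97 (SE 0.18) in the cochlea over E10.5 to E15, and -1.16 (SE 0.22) in the utricle (-0.98 on its second probe set) and -1.05 (SE 0.22) in the saccule over E12.5 to E15. Slc7a3, a carrier of arginine and lysine, fell by 1.11 (SE 0.17) in the cochlea.

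Over the same stages 1 of 5 calcium carriers (Slc24a3), 1 of 6 cation-chloride carriers (Slc12a2) and 1 of 3 nucleoside carriers (Slc29a1) were called, and each of these rose. Slc24a3, a potassium-dependent sodium-calcium exchanger, had 19.5 and 34.5 in the cochlea at E10.5, 84.5 and 80.2 at E12.5 and 347 and 219.8 at E15, a trend of 2.52 (SE 0.13, limma adjusted p = 3.60e-19). Slc29a1, the equilibrative nucleoside transporter ENT1, had 75 and 91.8 at E10.5, 154 and 214 at E12.5 and 561 and 469 at E14, a trend of 2.08 (SE 0.16, limma adjusted p = 9.92e-14). It also rose in the utricle (1.15, SE 0.20) and the saccule (1.07, SE 0.20). Slc12a2, the sodium-potassium-chloride cotransporter NKCC1 that later drives potassium secretion into the endolymph, differed in timing from these. It had 459 and 477 at E14, 511 and 512 at E14.5 and 1447 and 1250 at E15, and the trend over all stages was 1.17 (SE 0.14), or 0.62 on the second probe set. The utricle with ampullae had 916 and 571 at E12.5 and 835 and 720.3 at E15, and the difference between the cochlear and utricular changes was 1.44 (SE 0.23, limma adjusted p = 4.56e-05); on the second probe set it was 0.88 with an adjusted p of 0.069.

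In the vestibular organ over E10.5 to E12, 7 solute carriers were called, 4 risen and 3 fallen (9 and 3 on the values as deposited). Of all genes, 2.23 percent rose and 1.79 percent fell. The E10.5 arrays of this tissue had the shorter dispase time and its later arrays the longer. Stage and enzyme time can thus not be told apart between them. Beside Slc15a2 and Slc27a4, Slc6a15 rose by 1.53 (SE 0.30), Slc27a2 by 1.08 (SE 0.25) and the mitochondrial outer membrane protein gene Slc25a46 by 1.09 (SE 0.30) (0.08 on its second probe set), and the mitochondrial aspartate-glutamate carrier gene Slc25a13 fell by 1.56 (SE 0.20) and the vesicular zinc carrier gene Slc30a2 by 1.47 (SE 0.21). Slc27a2 had 472 and 413 at E11.5 and 2563 and 1439 at E12, and without the first E12 array its trend was 0.71 with an adjusted p of 0.113. That of Slc25a46 was 0.61 with an adjusted p of 0.2563 without the first E10.5 array. In the utricle with ampullae over E12.5 to E15, 5 rose and 2 fell (6 and 1 as deposited), where 5.04 percent of all genes rose and 2.49 percent fell. Beside genes already described, Slc48a1, a heme transporter of endosomes, rose by 1.34 (SE 0.19), or by 0.68 on its second probe set. The summed signal of the neuronal markers there was 1730 and 3150 at E12.5 and 5504 and 5570 at E15, with Nefl and Nefm risen and Gap43 and Tubb3 fallen. That of 4 macrophage markers was 432.8 and 466.9 at E12.5 and 1096 and 1551 at E15, with Mrc1 risen, and that of 6 endothelial markers 364.9 and 374.4 at E12.5 and 647.6 and 654.3 at E15, with Kdr risen. Col1a1, Pmel, Otog and Sox10 also rose and Lum, Hbb-y and Hba-x fell, and the part of these markers in the utricular changes was not tested. The count of solute carriers was 13 without the second E12.5 array of that tissue. In the saccule 12 rose and 5 fell, where 4.59 percent of all genes rose and 2.49 percent fell.

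Of the 12 risen genes, 2 had low signals at E12.5, Slc17a6 and Slc6a14. Both passed the detection rule through the few groups where they are high, so their rises are not independent of that rule. Slc17a6, the vesicular glutamate transporter VGLUT2 of excitatory neurons, had 17.2 and 10.7 at E12.5, 61.2 and 37.4 at E13.5 and 147 and 127 at E15 in the saccule, a trend of 2.29 (SE 0.16, limma adjusted p = 3.08e-14). In the cochlea and the utricle it was at the floor of 10 on 9 and 11 of the 12 arrays over the same days. Slc6a14, a broad carrier of neutral and basic amino acids, had 34 and 20.5 at E12.5 and 164 and 103 at E15, a trend of 1.87 (SE 0.23, limma adjusted p = 3.30e-08). Neuronal and hindbrain markers differ among these tissues. The summed signal of 7 neuronal markers was 1872 and 3467 in the saccule at E12.5 and 6056 and 6487 at E15, with Nefl and Nefm risen and Stmn2 and Tubb3 fallen, and in the utricle it was 5504 and 5570 at E15. Of 5 hindbrain markers, Fabp7, Zic1 and Zic5 were higher in the saccule than in the utricle (summed signal 1581 to 3150, against 424.1 to 1158). Of the 7 neuronal markers, 0 were called between saccule and utricle. The part of these cells in the rises was not tested. The remaining saccular calls were rises of Slc4a1, Slc24a3, Slc30a1, Slc30a2 and Slc48a1 and falls of the phosphate carrier Slc20a1 (-1.25, SE 0.17), the sodium-proton exchanger Slc9a8 (-1.08, SE 0.24) and Slc39a8 (-1.01, SE 0.20). On second probe sets the saccular trend was -0.83 for Slc4a1, 0.34 for Slc48a1 and 0 for Slc39a8, and 3 globin genes fell in the saccule too. The Slc30a1 rise was 0.40 with an adjusted p of 0.508 without the second E12.5 array and 1.80 without the first.

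**Figure D2:**
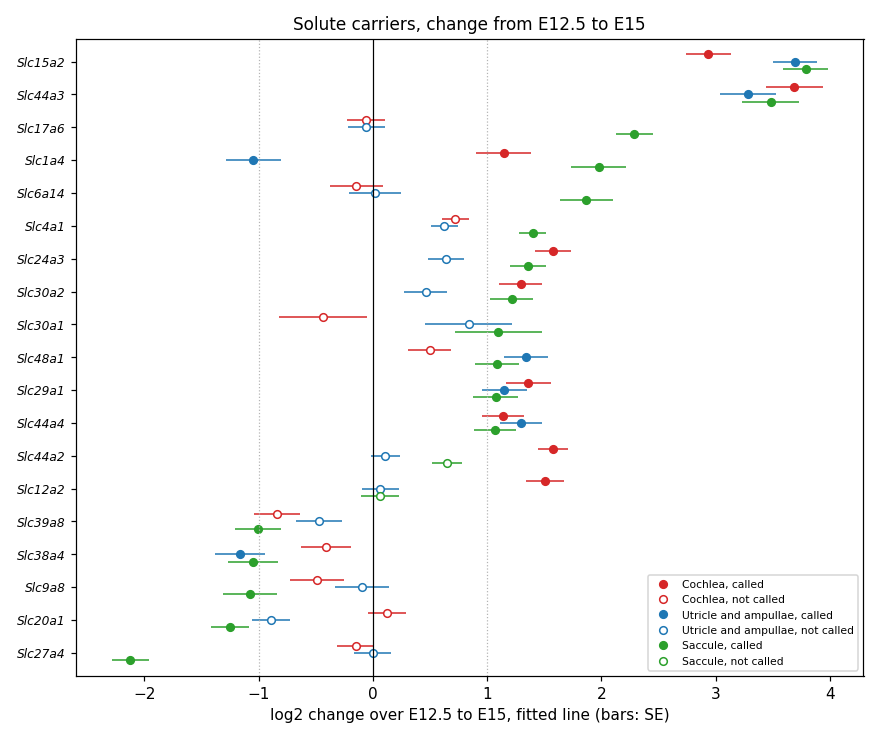
Change over E12.5 to E15 on the log2 scale (points, with SE as bars) of the 19 solute carriers called in the cochlea, the utricle with ampullae or the saccule; filled points were called, and dotted lines mark a change of 1. Slc15a2 and Slc44a3 rose by 2.94 to 3.79 in all 3 tissues. Slc44a2 and Slc12a2 were called in the cochlea alone, and Slc17a6 and Slc6a14 in the saccule alone. Slc17a6 and Slc6a14 passed the detection rule through the few groups where they are high.

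Setting the cochlear and utricular changes over E12.5 to E15 against each other, 7 solute carriers differed, 5 higher and 2 lower in the cochlea (4 and 3 as deposited), where 1.73 percent of all genes were higher and 2.13 percent lower. Beside Slc1a4, Slc44a2 and Slc12a2, the cochlear change was above the utricular one for Slc6a15 and for the phosphate carrier Slc20a1, and below it for the iron exporter Slc40a1 and for Slc7a10. Slc7a10, the carrier Asc-1 of small neutral amino acids, had 256 and 233 at E12.5 and 135 and 137 at E15 in the cochlea, and 39.5 and 40.8 and 74 and 74.2 at those stages in the utricle, a difference of -1.51 (SE 0.21, limma adjusted p = 3.27e-06). The Slc6a15 difference was 1.29 (SE 0.38, limma adjusted p = 0.0292). Its lowest utricular signals were 237 and 431, at E15, and it missed the threshold without the first of those arrays (0.99, adjusted p = 0.1636). The Slc40a1 difference missed the threshold without the first E12.5 or the second E15 cochlear array (-1.05, adjusted p = 0.0611, and -1.02, adjusted p = 0.087). That of Slc20a1, 1.01, was under 1 in 9 of the fits that left out 1 array and 0.89 on the values as deposited. The count was 13 without the second E12.5 array of the utricle. Of the marker genes, Dct, Lum and Gata3 were higher and Nefl and Kdr lower in the cochlear than in the utricular change, and their part in these differences was not tested.

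Comparing tissues at matched stages, 3 carriers were higher in the cochlea than in every vestibular tissue: Slc39a8, Slc29a1 and Slc7a10. Against the vestibular organ over E10.5 to E12, 3 solute carriers were higher and 1 lower (2 and 2 on the values as deposited), where 0.535 percent of all genes were higher and 0.877 percent lower. Against the utricle with ampullae over E12.5 to E15, 4 were higher and 1 lower (4 and 2 as deposited), against 1.2 and 1.87 percent of all genes, and against the saccule 5 were higher and 5 lower (1.67 and 2.11 percent of all genes). Gata3, a transcription factor gene of the otic epithelium list, was the marker of that list that was higher in the cochlea in all 3 comparisons. Oc90 of that list and the neuronal Gap43 were lower than in the vestibular organ. Against the utricle, Lum and Stmn2 were higher and Nefl, Nefm and Gap43 lower. Against the saccule, Lum was higher. Nefl, Nefm, Elavl4, Fabp7, Zic1, Zic5, Hbb-y, Hba-x, Col1a1, Pdgfra and Mrc1 were lower there. The part of these markers in the solute carrier differences was not tested.

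Slc39a8 encodes ZIP8, which imports zinc, manganese and other divalent metals. Its lowest, median and highest signals were 222, 368 and 448 in the cochlea and 42, 77.7 and 132 in the vestibular organ over E10.5 to E12. Over E12.5 to E15 they were 109, 172 and 247 in the cochlea, 10, 14.3 and 23.3 in the utricle and 10, 24.9 and 57.3 in the saccule. The cochlear range lay above each of the others without overlap. The differences were 1.94 (SE 0.12, limma adjusted p = 4.23e-16) over the vestibular organ, 2.64 (SE 0.10, limma adjusted p = 5.60e-24) over the utricle and 2.24 (SE 0.10, limma adjusted p = 1.26e-21) over the saccule, and the direction was the same at all 4 early and all 6 late stages. Slc39a8 was at the floor on 4 of 12 utricular and 2 of 12 saccular arrays, so the sizes of the late differences are limited by that floor and depend on the pseudocount, while both were called with a pseudocount of 1 and of 64. Within the cochlea the gene fell, by 1.45 (SE 0.17) over E10.5 to E15, with 442 and 448 at E11 and 109 and 169 at E15. Its second probe set, at the floor on 34 of 64 arrays, gave 1.62 over the vestibular organ and 0.49 over both late vestibular tissues, below the threshold of 1.

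Slc29a1 was 154, 346 and 561 (lowest, median and highest) in the cochlea, 40.2, 69.7 and 122 in the utricle and 50.2, 97.2 and 147 in the saccule over E12.5 to E15. The cochlear arrays again lay above all of the others. It was higher in the cochlea by 2.05 (SE 0.10, limma adjusted p = 8.45e-21) over the utricle, 1.72 (SE 0.10) over the saccule and 1.22 (SE 0.12) over the earlier vestibular organ. Slc7a10 was 135, 211 and 271 in the cochlea, 39.5, 73.2 and 104 in the utricle and 23.7, 32.6 and 56.6 in the saccule, also without overlap. It was higher in the cochlea by 2.16 (SE 0.07, limma adjusted p = 2.26e-25) over the saccule, 1.40 (SE 0.07) over the utricle and 1.01 (SE 0.09) over the vestibular organ. The last of these is at the threshold and fell to 0.83 on the values as deposited. The early difference grew with stage: at E10.5 the cochlea had 33.6 and 44 and the vestibular organ 32.5 and 34.9, and at E12 the cochlea had 205 and 217 and the vestibular organ 37.6 and 59.9.

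Slc22a2, the organic cation transporter OCT2, was higher in the cochlea than in the utricle (1.15, SE 0.13), and Slc38a4 was lower (-1.10, SE 0.11). Slc44a3 was lower in the cochlea than in the vestibular organ (-1.29, SE 0.15, limma adjusted p = 1.00e-08), with 97.8 and 31.3 in the cochlea at E10.5 and 407 and 317 in the vestibular organ, a gap that was smaller at E12. Slc1a4 and Slc44a2 were higher in the cochlea than in the saccule, by 1.24 (SE 0.12) and 1.10 (SE 0.06), the second of them 0.93 on the other probe set.

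Also, 5 carriers were lower in the cochlea than in the saccule: Slc25a13, Slc27a2, Slc17a6, Slc40a1 and Slc6a14. Slc25a13, which passes aspartate out of mitochondria in exchange for glutamate, was 269, 418 and 568 (lowest, median and highest) in the cochlea and 629, 1205 and 2246 in the saccule, ranges that did not overlap, a difference of -1.49 (SE 0.09, limma adjusted p = 1.65e-17). Slc27a2 was ordered saccule, cochlea, utricle at every stage from E12.5, with 5778, 7261 and 7857 in the saccule, 2334, 2815 and 4313 in the cochlea and 1117, 1632 and 2068 in the utricle. The saccular arrays lay above the cochlear and these above the utricular ones. The cochlea over the saccule was -1.29 (SE 0.11, limma adjusted p = 4.45e-13) and the saccule over the utricle 2.14 (SE 0.11, limma adjusted p = 8.74e-20). Of the 159 solute carriers, 4 were higher in the saccule than in the utricle and 0 lower (1.2 and 1.52 percent of all genes). Without the limit on size, 41 were lower in the saccule at an unadjusted limma p under 0.05. The 3 beside Slc27a2 were Slc6a14 (1.33, SE 0.11), Slc6a15 (1.32, SE 0.13) and Slc17a6 (1.31, SE 0.08). Slc6a14 and Slc17a6 met the detection rule on 6 and 3 arrays, so they passed through the few groups where they are high. Under a filter of at least 16 arrays the 2 genes called are Slc27a2 and Slc6a15. Slc17a6 was at the floor on 11 of 12 utricular arrays and Slc6a14 on 3, and with a pseudocount of 64 their differences were 0.66 and 0.71, not called.

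**Figure D3:**
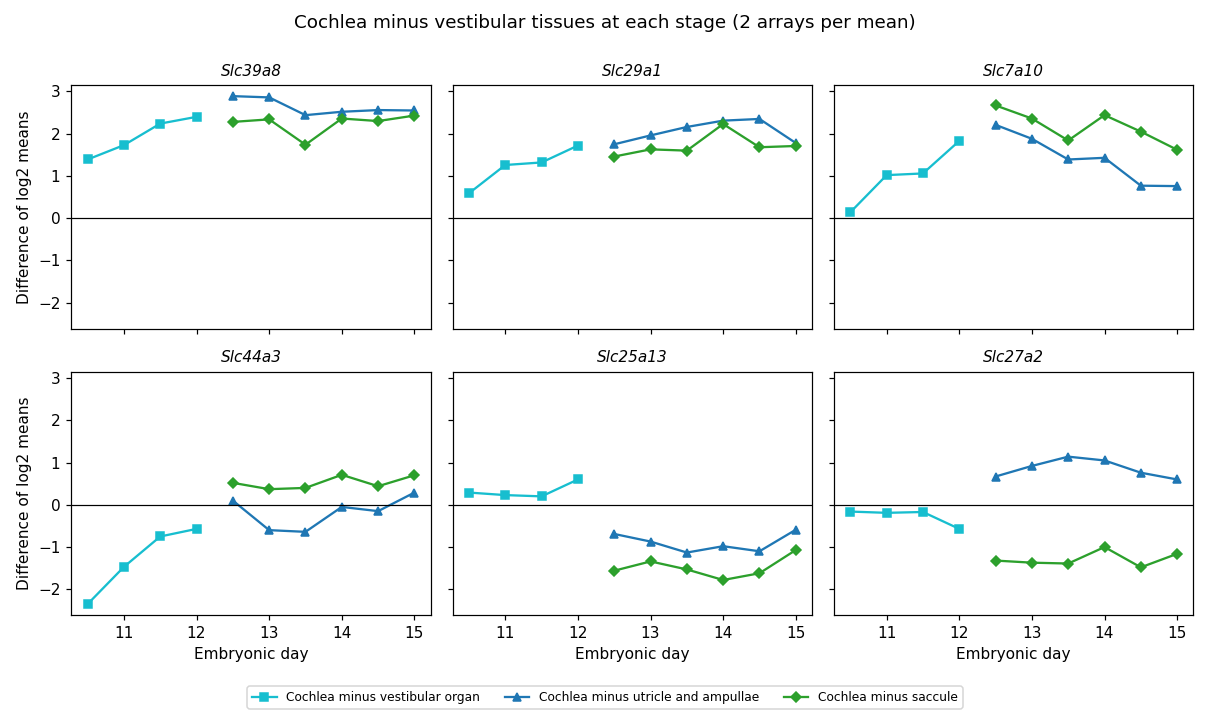
Difference between the cochlea and each vestibular tissue at the same stage, as log2 means of 2 arrays each, for 6 solute carriers. Slc39a8, Slc29a1 and Slc7a10 lie above 0 at all stages, Slc27a2 lies above 0 against the utricle and below 0 against the saccule, and Slc44a3 starts 2.35 below the vestibular organ at E10.5.

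Set against the tissue around it, the inner ear had more Slc27a2 in all 3 windows, more Slc7a3 in the early windows and more Slc6a15 in the late one. At E9, 5 solute carriers were higher and 2 lower in the placode (11 and 1 on the values as deposited), where 2.71 percent of all genes were higher and 3.23 percent lower. Over E9.5 to E10.5, 6 were higher and 4 lower (12 and 1 as deposited), against 3.72 and 4.68 percent of all genes, and over E11 to E15, 18 were higher and 7 lower (8.47 and 7.14 percent of all genes). Of the solute carriers, 3.14, 3.77 and 11.3 percent were higher in the 3 windows, the first 2 of them near the shares of all genes. Without quantile normalization the all-gene median was 0.32, 0.33 and 0.13 in the 3 windows. The surrounding tissue is rich in other cells: all 7 neuronal, all 7 mesenchyme and all 6 endothelial markers measured were lower in the inner ear over E11 to E15, and their part in these differences was not tested.

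Slc27a2 had the largest difference of the 25 genes called over E11 to E15. Its signals were 282 and 318 in the placode, against 136 and 142 around it at E9. Over E11 to E15 the inner ear arrays ran from 367.5 to 7857 with a median of 2425, against 73.9 and 199 in the surrounding tissue. The groups did not overlap in any of the 3 windows, and the differences were 1.02 (SE 0.26), 1.99 (SE 0.21) and 3.87 (SE 0.19, limma adjusted p = 5.16e-20). Slc7a3, the arginine and lysine carrier, had 438 and 439.6 in the placode, against 48.5 and 49.1 around it, 2.81 (SE 0.24) at E9 and 2.17 (SE 0.19) over E9.5 to E10.5, and 0.73 (SE 0.18), not called, over E11 to E15. Slc16a1, the lactate and pyruvate carrier MCT1, had 180.5 and 129 in the placode, against 40.8 and 46.3 around it (higher, limma adjusted p = 7.12e-06). This gene is dim in many later groups, and the placode arrays alone could meet the detection rule. Its difference may thus depend on that rule.

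Slc6a15 and Slc12a5 changed sides. Slc6a15 had 33.1 and 31.6 in the placode, against 114 and 157 around it (-1.63, SE 0.32, limma adjusted p = 2.77e-04). Over E11 to E15 the inner ear arrays ran from 237.4 to 3956 with a median of 1170, against 99.1 and 87.6 in the surrounding tissue (3.19, SE 0.23, limma adjusted p = 8.60e-15). Slc12a5, the potassium-chloride cotransporter KCC2 of neurons, had 54 and 31.5 in the placode, against 130.3 and 132 around it. Over E11 to E15 the inner ear arrays ran from 60.6 to 238.9 with a median of 145, against 35.6 and 46.1. The differences were -1.35 (SE 0.24), -1.34 (SE 0.19) and 1.47 (SE 0.17, limma adjusted p = 2.73e-09) over the 3 windows. In both genes the ear lay below the surrounding tissue at E9 and above it over E11 to E15, without overlap. The difference between windows was not tested.

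**Figure D4:**
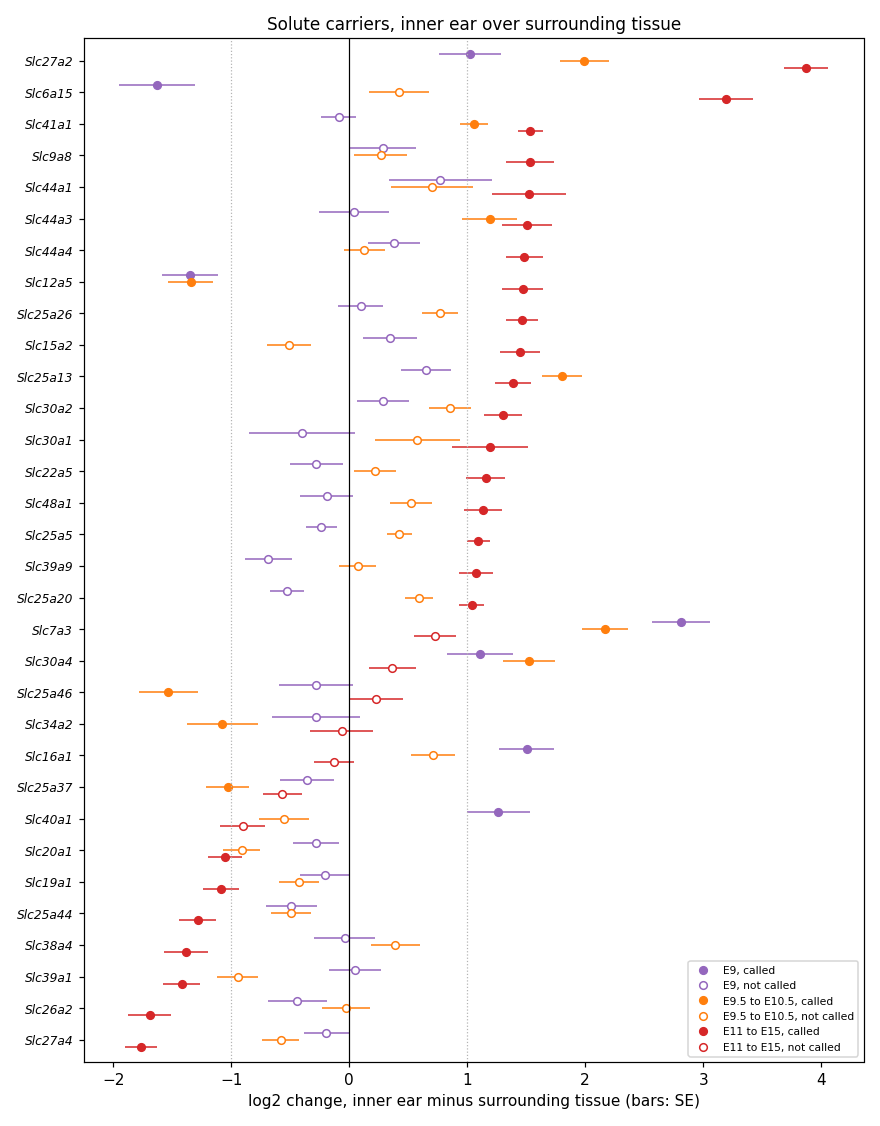
Inner ear minus surrounding tissue on the log2 scale (points, with SE as bars) for the 32 solute carriers called in at least 1 of 3 windows; filled points were called, and dotted lines mark a difference of 1. Slc27a2 is higher in all 3 windows, Slc7a3 in the first 2, and Slc6a15 and Slc12a5 lie below 0 at E9 and above 0 over E11 to E15.

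Some metal carriers were among the genes called in these windows. The zinc carriers of the Slc30 family move zinc out of the cytosol. Of these, Slc30a4 was higher in the inner ear by 1.11 (SE 0.28) at E9 and 1.52 (SE 0.22) over E9.5 to E10.5. Slc30a2 was higher by 1.31 (SE 0.16) and Slc30a1 by 1.19 (SE 0.33) over E11 to E15. The Slc30a4 call at E9 was lost without the first placode array (0.79, adjusted p = 0.1203), and that of Slc30a1 without the second surrounding array (0.76, adjusted p = 0.1761). Of the zinc importers, Slc39a9 was higher (1.08, SE 0.14) and Slc39a1 lower (-1.42, SE 0.16) over E11 to E15. Slc41a1, a magnesium transporter, had 718, 1245 and 2186 (lowest, median and highest) in the inner ear over E11 to E15, against 396 and 434 around it, ranges that did not overlap. The difference was 1.54 (SE 0.11, limma adjusted p = 5.13e-15). The iron exporter Slc40a1 was higher in the placode at E9 (1.26, SE 0.27, limma adjusted p = 6.21e-04), and the heme transporter Slc48a1 was higher over E11 to E15 (1.13, SE 0.16), of which the second probe set gave -0.30.

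Mitochondrial carriers were split in the same windows. Slc25a13 was higher by 1.80 (SE 0.17) over E9.5 to E10.5 and 1.39 (SE 0.15) over E11 to E15, and the S-adenosylmethionine carrier Slc25a26, the ADP/ATP carrier Slc25a5 and the carnitine-acylcarnitine carrier Slc25a20 were higher over E11 to E15 by 1.46 (SE 0.14), 1.09 (SE 0.10) and 1.04 (SE 0.10). Slc25a44, a carrier of branched-chain amino acids, was lower (-1.28, SE 0.16), and the iron carrier Slc25a37 was lower over E9.5 to E10.5 (-1.03, SE 0.19), where 3 globin genes were lower too. Slc25a46 was lower over E9.5 to E10.5 on its representing probe set (-1.53, SE 0.25) and not on its second (0.27). Slc26a2, the sulfate carrier that cartilage depends on, had 431, 762 and 1206 in the inner ear over E11 to E15, against 1796 and 3486 around it, a difference of -1.69 (SE 0.18, limma adjusted p = 4.45e-10). Also lower over E11 to E15 were the phosphate carrier Slc20a1 (-1.05, SE 0.14), the folate carrier Slc19a1 (-1.08, SE 0.15), Slc38a4 (-1.39, SE 0.19) and Slc27a4 (-1.76, SE 0.14), the last at the floor on 32 of 48 inner ear arrays. Slc15a2 and the 3 Slc44 genes Slc44a1, Slc44a3 and Slc44a4 were higher by 1.45 to 1.53 over those stages. The Slc44a1 difference was -0.69 on the second probe set and that of Slc15a2 0.28, not called. Second probe sets also fell short of the threshold for Slc25a44 (-0.11), Slc19a1 (-0.11), Slc38a4 (-0.91), Slc25a5 (0.97) and Slc25a20 (0.81).

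Between the placode and the vesicle, 5 solute carriers were higher and 3 lower at E10 than at E9, where 3.73 percent of all genes were higher and 1.56 percent lower. Of the marker genes, Nefm, Gap43, Prrx1, Snai2, Mrc1, Otog, Oc90 and Sox10 were higher at E10 and Hoxb1 and Actc1 lower. Their part in the solute carrier changes was not tested. The lactate carrier Slc16a1 fell the most apart from Slc15a2, with 28.4 and 17.4 at E10 and 180.5 and 129 at E9 (-2.13, SE 0.23, limma adjusted p = 9.21e-09). In the cochlea it was listed at the floor on all 12 arrays from E12.5. It could meet the detection rule through the placode alone, so its fall may depend on that rule. Slc15a2 fell by 2.20 (SE 0.23) on its representing probe set, whereas the dimmer one gave -0.11 with an adjusted p of 0.827. Slc40a1 had 206 and 210.2 at E10 and 490.1 and 566 at E9 (-1.28, SE 0.27, limma adjusted p = 5.05e-04). Beside Slc44a3, the orphan organic ion carrier Slc22a23 rose by 1.24 (SE 0.24), Slc6a15 by 1.17 (SE 0.32), Slc25a20 by 1.15 (SE 0.14) and Slc39a8 by 1.04 (SE 0.24). On second probe sets the change was 0.18 for Slc39a8 and 0.85 for Slc25a20. The Slc39a8 and Slc6a15 calls were lost without the second E10 array (0.80, adjusted p = 0.0506, and 1.09, adjusted p = 0.0527).

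Grouped by family or substrate, calls in any of the 14 comparisons reached 4 of 4 Slc44 genes, 2 of 3 phosphate carriers and 2 of 3 iron and manganese carriers. They also reached 6 of 13 amino acid carriers, 5 of 11 organic ion carriers, 9 of 26 mitochondrial carriers and 6 of 17 zinc carriers. These counts are to be read against the 37.3 percent of all genes called in any of the comparisons. Members of 1 group could move in opposite directions: in the cochlea over E10.5 to E15 the mitochondrial carriers Slc25a28, Slc25a44 and Slc25a45 rose by 1.18 to 1.44 while Slc25a13, Slc25a5 and Slc25a26 fell. Of the organic ion carriers, Slc22a12, Slc22a18 and Slc22a23 rose there by 1.18 to 1.37, and the second probe sets gave 0.05 for Slc22a12 and -0.24 for Slc22a18. Without the E11 arrays the Slc22a18 trend was 0.56 with an adjusted p of 0.1676. Second probe sets also gave 0.15 for Slc25a44 and 0.53 for Slc38a10 and -0.90 for Slc25a5, each under the threshold. Slc6a18, a renal neutral amino acid carrier, and Slc38a10 rose by 1.17 (SE 0.13) and 1.06 (SE 0.12), and Slc43a3 fell by 1.12 (SE 0.17). Slc4a1, the anion exchanger of red blood cells, rose by 1.61 (SE 0.10) on its representing probe set and fell by 1.81 on the second, while 3 globin genes fell. Within E11 to E15, Slc25a28, Slc25a5, Slc22a23 and Slc38a10 were not called, as given above.

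The limma fits called 0 genes among the nucleotide sugar carriers (4), the sugar carriers of families 2 and 50 (4), the sodium-coupled family 5 with family 45 (7), the sugar phosphate carriers (3), or the copper carriers (2). The same held for the bile acid and steroid (2), lysosomal (2), sulfate and carboxylate (2) and urea (1) carriers. Of all genes 37.3 percent were called at least once, and sets this small cannot show that a class is stable. Of a panel of carriers with known ear roles, 7 were among the solute carriers described. Slc12a2, Slc44a2 and Slc30a4 were called as given above, and the potassium-chloride cotransporter Slc12a7, the thiamine carrier Slc19a2, the lysosomal nucleoside carrier Slc29a3 and the riboflavin carrier Slc52a3 were called in no comparison. Slc12a7 and Slc29a3 both spanned 0.61 log2 over the inner ear groups.

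**Figure D5:**
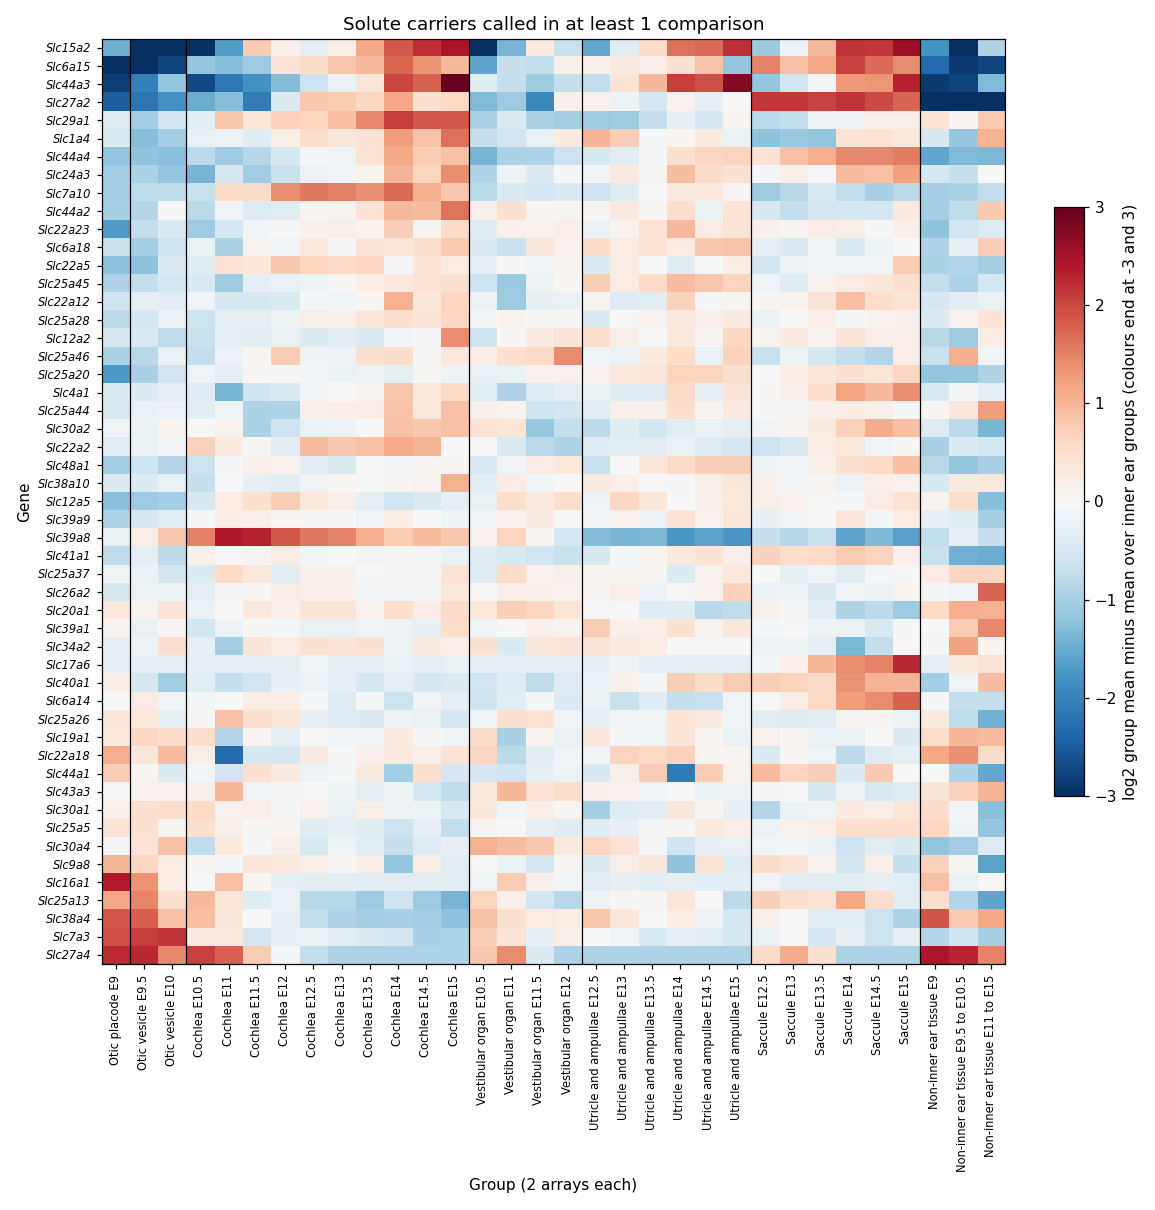
Mean log2 signal of each group (columns, 2 arrays each) minus the mean over the inner ear groups, for the 51 solute carriers called in at least 1 comparison (rows, ordered by late cochlea minus E9 to E10 ear); colours end at -3 and 3. Slc15a2 and Slc44a3 run from low at E9.5 to E10 and in the cochlea at E10.5 to high at E14 to E15. Slc44a3 is not as low in the vestibular organ at E10.5. Slc39a8 is high in the cochlea, and Slc27a2 is highest in the saccule.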

How the data were processed

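RNA of microdissected CBA/J tissues was hybridised to 64 Affymetrix arrays. The authors deposited linear MAS5 signal intensities for 22626 probe sets, per the submitters' processing notes; no scaling is stated there, and the lowest intensity is 10. Genes were named from the platform annotation: 20380 probe sets have 1 symbol, 691 several and 1555 none. Intensities were quantile-normalized and log2(signal + 16) was fitted in limma 3.58.1 (R 4.3.3) with a term for each of 32 groups (32 residual degrees of freedom). Probe sets at or above the array median on at least 2 arrays were kept, and the kept probe set with the highest mean represents a gene. P-values were adjusted by Benjamini-Hochberg over 9352 genes. With 2 pools a group, the number of arrays limits precision. Array medians were 64.7 to 107.6. The test was checked on simulated data.

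The solute carriers and all lists were chosen with earlier results of these data known. Genes to name were drawn from a rule. It covers the 8 largest called changes each way per comparison and the 3 largest of each substrate group. It also covers the 10 brightest, most and least variable, those at the edge of the detection rule, and a panel with known ear roles. Some genes that the rule covers, such as the phosphate carriers Slc20a2 and Slc34a2, are not described above. Genes named beyond the rule were chosen after their values were seen. The main fit held no pairing, so its SEs and p-values do not account for one. Deviations of same-numbered arrays of cochlea and utricle with ampullae correlated at every stage. An alternative fit with a replicate block lost no call there. Alternatives were other pseudocounts, filters, probe sets, array weights, groups in the fit, stages left out, each array left out and the values as deposited.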

Additional observations from a re-analysis of the deposited data

Results flagged for a closer look

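The change over E12.5 to E15 differed between the cochlea and the utricle with ampullae, by a limma interaction test adjusted over all 9352 genes, for 7 solute carriers. The cochlear change was above the utricular one for Slc1a4 by 2.19 (adjusted p = 2.49e-05), for Slc44a2 by 1.47 (3.59e-07), for Slc12a2 by 1.44 (4.56e-05), for Slc6a15 by 1.29 (0.0292) and for Slc20a1 by 1.01 (0.0044). It was below it for Slc40a1 (-1.22, 0.0115) and for Slc7a10 (-1.51, 3.27e-06). Slc1a4 is the member whose 2 tissues were both called with opposite signs, higher at E15 in the cochlea and lower at E15 in the utricle.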

How the results depend on the processing

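Each comparison was refitted with 1 choice changed at a time. A pseudocount of 1 changed the number of solute carriers called to 16 for the inner ear over surrounding tissue at E9.5 to E10.5, 13 for E10 over E9 and 12 for the vestibular trend. A pseudocount of 64 gave 4, 5 and 13 in the 3 windows of inner ear over surrounding tissue, 3 for the utricular and 10 for the saccular trend, 1 for cochlea over vestibular organ, 3 for cochlea over utricle and 2 for saccule over utricle. A filter of at least 16 arrays gave 2 for saccule over utricle. Of the 164 called values this filter kept 152, all with their call. The rest belong to genes that met the detection rule on fewer than 16 arrays. Those calls are not independent of that rule. The values as deposited gave 12 at E9 and 12 for the vestibular trend. Stages E12.5 to E15 alone, chosen after seeing the data, gave 9 for both cochlear trends. Leaving out 1 array gave 5 to 7, 8 to 12 and 25 to 31 in the 3 windows, 8 to 11 for E10 over E9, 25 to 32 and 24 to 27 for the cochlear trends from E10.5 and from E11, 7 to 10 for the vestibular, 6 to 13 for the utricular and 13 to 17 for the saccular trend, 3 to 5, 5 to 6 and 10 for cochlea over vestibular organ, utricle and saccule, 4 to 5 for saccule over utricle and 5 to 13 for the difference of trends.

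Reversed on the second probe set were Slc25a46 at E9.5 to E10.5 (0.27), Slc44a1 (-0.69) and Slc48a1 (-0.30) at E11 to E15, Slc22a18 in the cochlear trends from E10.5 (-0.24) and E11 (-0.074), and Slc4a1 in the cochlear trends (-1.81 and -1.80) and the saccular trend (-0.83). Over E12.5 to E15 alone the cochlear trends of Slc27a2 (-0.19, from both) and Slc7a10 (-0.69) reversed. The cause was not tested. Of 56 called values whose gene has a second probe set, 28 more lost their call on it. Of all 164 called values, 59 lost it with the pseudocount of 64 and 15 as deposited; in 3454 values with 1 array left out, 87 lost it and 0 reversed. With the replicate block, 164 of 164 kept their call. Same-numbered arrays of cochlea and utricle deviated together at each of 6 stages (correlation over genes 0.20 to 0.51), while for cochlea with saccule at E15 it was -0.50. With 2 arrays a group, and probe sets near the floor of 10, small differences of dim genes could not be measured.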

Other observations

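Other transport genes, from lists chosen with earlier results of these data known, were counted in the same comparisons. In the cochlea over E10.5 to E15, 2 of 7 organic anion transporters of the Slco family rose (Slco1a5 and Slco3a1), as did 2 of 19 subunits of the V-type proton pump (Atp6v0a2 and Atp6v1b1) and 1 of 5 aquaporins, the water channel Aqp5. Of 23 P-type pumps and subunits 2 rose, among them Atp1b1, a subunit of the sodium-potassium pump, and 3 fell (Atp13a3, Atp1b3 and Atp8a2), and of 25 ABC transporters 2 rose (Abca1 and Abcg5) and Abcg2 fell. Of 8 carbonic anhydrases 1 was called, Car14, which fell. Over that window 8.06 percent of all genes rose and 6.89 percent fell. Atp1b1 was also higher in the cochlea than in the vestibular organ and the utricle. The carbonic anhydrase gene Car12 rose in the utricle and the saccule over E12.5 to E15 and was higher in the saccule than in the utricle, and Car13 was higher in the cochlea than in all 3 vestibular tissues.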
